A study of Mus musculus with 72 samples.

Results

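The testes of adult F2 males were compared between offspring sired by males that had themselves been conceived by in vitro fertilization (IVF) and offspring sired by naturally conceived males (naturals). The comparison took every library of F2 testis at 12 weeks of age, 12 of the 72 libraries of the series, with 5 from naturals and 7 from the IVF group, and was described across all genes. Both sets of fathers came from SJL/B6 sperm and CF-1 oocytes. The IVF fathers were fertilized in a dish with eggs of superovulated females and transferred as blastocysts to CF-1 recipients, and natural fathers came from mating. All F2 mice were conceived by natural mating of these fathers with wild-type CF-1 females, so neither F2 group was itself exposed to IVF. CF-1 is an outbred stock, and the fathers and litters of the sequenced F2 males were not given in the sources used here. Samples of a group may share parents or a litter, so they may not be independent replicates of the fathers' conception. The p-values therefore measure the spread between these samples only. RNA came from a cross section of a frozen testis and mRNA was sequenced with a stranded kit.

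The adult testis makes sperm in seminiferous tubules, where germ cells pass from spermatogonia through meiotic spermatocytes to round and elongating spermatids, supported by Sertoli cells. Leydig cells between the tubules make testosterone from cholesterol, and 3β-hydroxysteroid dehydrogenases carry out a step of that synthesis. Most of the RNA of a whole testis comes from meiotic and later germ cells, so genes of rarer cell types make up a small part of bulk RNA. In such samples fewer cells of a type and less RNA per cell cannot be told apart.

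Total counts were 23707177 to 27346141 in naturals and 20840178 to 25453718 in IVF. The difference of the mean log2 totals, -0.20, had a p of 0.0139 in a two-sided exact permutation test, and with counts thinned to the smallest library the number of changed genes was 191 in place of 196. The libraries were of testis by their defining markers: the protamine gene Prm2 stood at 3473 CPM (counts scaled to a common library size) in naturals and 3939 CPM in IVF, and the meiotic gene Sycp3 at 60.8 and 64.2 CPM. Within groups, 2 pairs of libraries stood apart by their likeness. Over genes with enough reads, the chi-square per gene of halved counts, which is about 1 for draws from the same pool, was 1.97 for Natural 1 with Natural 2 and 1.46 for IVF 3 with IVF 4, against 3.84 to 11.2 for all other pairs within a group. Both pairs differed by more than sampling noise and were kept as separate samples. Whether a pair came from littermates or was 1 animal sequenced again is not given in the sources used here, and the counts of changed genes are given below also with each pair summed, which leaves 10 samples. The first principal component, 20.5% of the variance, held all naturals between -30.8 and -25.4 and all IVF libraries between 5.63 and 29.9. The second, 12.2% of the variance, split the IVF group. IVF 1, 2 and 6 stood at 37.1, 39.8 and 12.1 on it, and IVF 3, 4, 5 and 7 between -20.1 and -12.3. Naturals lay between -12.9 and 4.30.

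Of 21454 genes tested, 196 were differentially expressed genes (DEGs), or 0.914%, called where edgeR's quasi-likelihood test gave an adjusted p below 0.05 with a change beyond 1.5-fold. The 196 DEGs comprised 103 upregulated genes (0.48% of those tested) and 93 downregulated genes (0.433%) in IVF. The median log2 fold change of all tested genes was 0.00054, and 104 DEGs changed by more than 2-fold. Without the fold limit 345 genes (1.61%) passed. Among DEGs, the libraries of both groups did not overlap for 71 upregulated and 61 downregulated genes, beside 414 of all tested genes (1.93%) that did not overlap. DEGs were of low abundance, with a median of 3.76 CPM against 8.21 CPM for all tested genes, and 97 of them stayed under 5 CPM in both groups. By their RefSeq type, 109 were protein coding and 61 were long noncoding RNAs (lncRNAs). DESeq2's Wald test, run on 32139 genes with its own filter on low counts, called 374 genes, 196 upregulated and 178 downregulated, among them all 196 edgeR DEGs. With the 2 close pairs summed there were 92 DEGs, 47 upregulated and 45 downregulated, of which 90 were among the 196. Without Natural 1 there were 111 DEGs and without Natural 2 there were 116, and without IVF 3 the downregulated genes fell to 61.

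**Figure D1:**
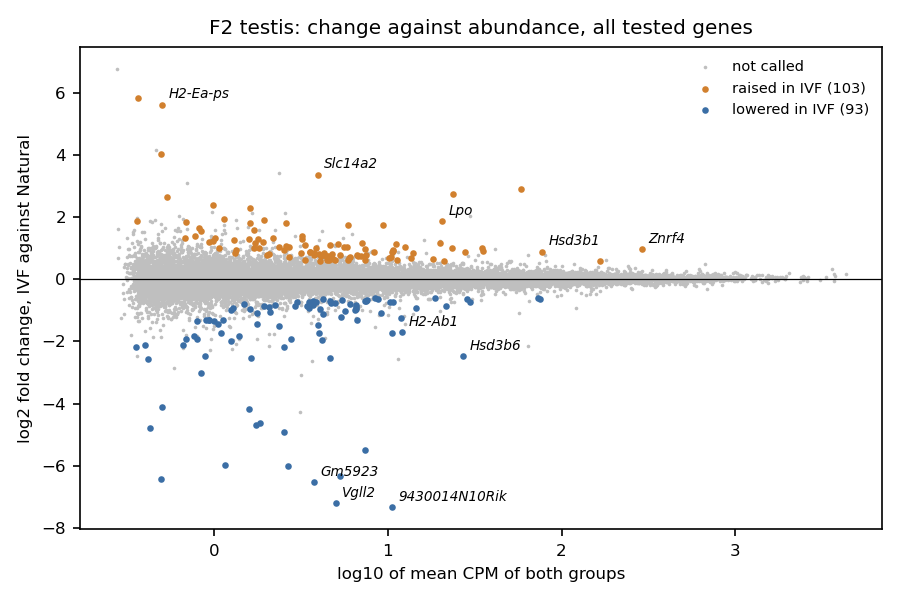
Each point is 1 of the 21454 tested genes, with the log10 of its mean CPM over both groups on the x axis and its log2 fold change, IVF against naturals, on the y axis. The 103 upregulated genes are orange and the 93 downregulated genes blue, most lie at low abundance, and a fitted fold change of a gene that is near 0 in one group depends on the prior count.

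The genes with the smallest adjusted p among those downregulated were nearly silent in the testes of the IVF group. Vgll2, a cofactor of TEAD transcription factors (chr10:52022502-52028471 in GRCm38.p6, the patch release of mm10), was at 8.56, 10.0, 12.0, 10.4 and 8.90 CPM in the 5 naturals. In the 7 IVF libraries it was at 0 CPM at the lowest, 0.0884 CPM at the median and 0.165 CPM at the highest. Every natural was thus far above every IVF library (adjusted p = 2.01e-12, edgeR). At 2 counts a read pair, 660 read pairs in naturals stood against 5 in IVF, and after allowing for depth the ratio was 159 with an exact 95% interval of 67.8 to 491, which covers counting error only.

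The promoter of Vgll2 is shown because this gene had the smallest adjusted p of all genes tested. It spans chr10:52022252-52022551 on the + strand of GRCm38.p6, from 250 bases before to 50 bases after the start in RefSeq. Capitals mark a match to TGACG, the half-site of the cyclic AMP response element, which binds CREM and related factors in spermatids.
Vgll2: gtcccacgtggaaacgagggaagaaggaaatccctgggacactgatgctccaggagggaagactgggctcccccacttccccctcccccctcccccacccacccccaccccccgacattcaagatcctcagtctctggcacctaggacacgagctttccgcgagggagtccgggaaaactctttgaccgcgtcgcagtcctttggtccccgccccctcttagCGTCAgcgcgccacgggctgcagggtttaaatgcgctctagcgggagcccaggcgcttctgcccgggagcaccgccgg
That half-site was present on either strand in 20.8% of all RefSeq promoters of this length and in 25.7% of those of tested genes, beside 14.4% for upregulated and 23.9% for downregulated genes. The window held no match to TATAAA, the TATA box. TATAAA was present in 13.6% of all promoters and in 9.45% of those of tested genes, beside 9.28% for upregulated and 12.5% for downregulated genes.

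Of the 196 DEGs, 16 were near absent in IVF and 5 near absent in naturals, defined after the values were seen as at most 10 counts in every library and a mean under 0.2 CPM. Gm5923, a protein-coding gene of the X chromosome, was at 5.78, 6.94, 7.62, 8.77 and 8.28 CPM in naturals. In IVF its lowest, median and highest values were 0, 0.0823 and 0.177 CPM. The ratio was 98.7 (exact 95% interval 45.0 to 270; adjusted p = 4.01e-12, edgeR), and the groups did not overlap. The lncRNA 9430014N10Rik on chromosome 15 had the highest level of the 16, at 24.8, 25.5, 14.7, 27.0 and 13.5 CPM in naturals. Its IVF values ran from 0 CPM through a median of 0.0969 CPM to 0.329 CPM. Naturals themselves fell into higher and lower libraries for this lncRNA, and even the lowest was far above IVF (adjusted p = 7.45e-09, edgeR).

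The lncRNA 1700084F23Rik on chromosome 13 was at 10.5 ± 1.38 CPM (SD, n = 5) in naturals and 0.125 ± 0.116 CPM (SD, n = 7) in IVF. Trpv1, the ion channel that senses heat and capsaicin, was at 4.84, 3.73, 3.40, 4.05 and 1.66 CPM in naturals. In IVF it had a median of 0.165 CPM and a highest value of 0.318 CPM, so the groups did not overlap (adjusted p = 1.00e-06, edgeR). Among the other genes near absent in IVF were Gm14149, Gm26715, A530064D06Rik, LOC108168468 and LOC108168732, all with a mean under 6 CPM in naturals. Summing the close pairs of libraries left 19 of these 21 near-absent genes called.

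Other downregulated genes kept a measurable level in IVF. Ror2, a receptor tyrosine kinase for Wnt5a, was at 5.64, 6.64, 6.79, 7.20 and 7.04 CPM in naturals. In IVF its lowest, median and highest values were 0.872, 1.91 and 2.32 CPM. The log2 fold change was -1.95 ± 0.19 (SE; adjusted p = 1.97e-06, edgeR), with no overlap. Gm31532, a pseudogene on chromosome 17, was at 7.95 ± 2.35 CPM (SD, n = 5) in naturals and 1.37 ± 0.417 CPM (SD, n = 7) in IVF. Mxra8, a cell adhesion protein, had 88.0 ± 4.63 CPM in naturals and 58.6 ± 11.3 CPM in IVF, and Ldoc1l, a retrotransposon-derived gene now called Rtl6, had 92.0 ± 12.3 and 59.1 ± 10.5 CPM. Kcnab2, a potassium channel beta subunit, had 36.9 ± 9.44 and 22.5 ± 2.75 CPM. Kcnab2 passed in no fit that left out a library except that without Natural 4, Mxra8 passed only without IVF 2 or IVF 7, and none of Mxra8, Ldoc1l and Kcnab2 passed with the close pairs summed.

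The upregulated genes named for a small adjusted p had a mean of at least 1 CPM in the higher group and were measurable in both groups. That limit left out genes near absent in naturals, such as H2-Ea-ps (adjusted p = 1.31e-05, edgeR). Lpo, which encodes the secreted enzyme lactoperoxidase, had the smallest adjusted p of them (1.56e-11, edgeR). It was at 9.79, 9.00, 8.15, 9.94 and 7.08 CPM in naturals. In IVF it ranged from 29.6 CPM through a median of 32.5 CPM to 36.3 CPM, for a log2 fold change of 1.88 ± 0.09 (SE). The highest natural was well below the lowest IVF library. Znrf4, a ubiquitin ligase gene expressed in the testis, was the most abundant DEG. It was at 181, 180, 216, 198 and 201 CPM in naturals, and in IVF at 304 CPM at the lowest, 393 CPM at the median and 421 CPM at the highest. Its log2 fold change was 0.98 ± 0.07 (SE; adjusted p = 1.85e-08, edgeR), with no overlap.

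**Figure D2:**
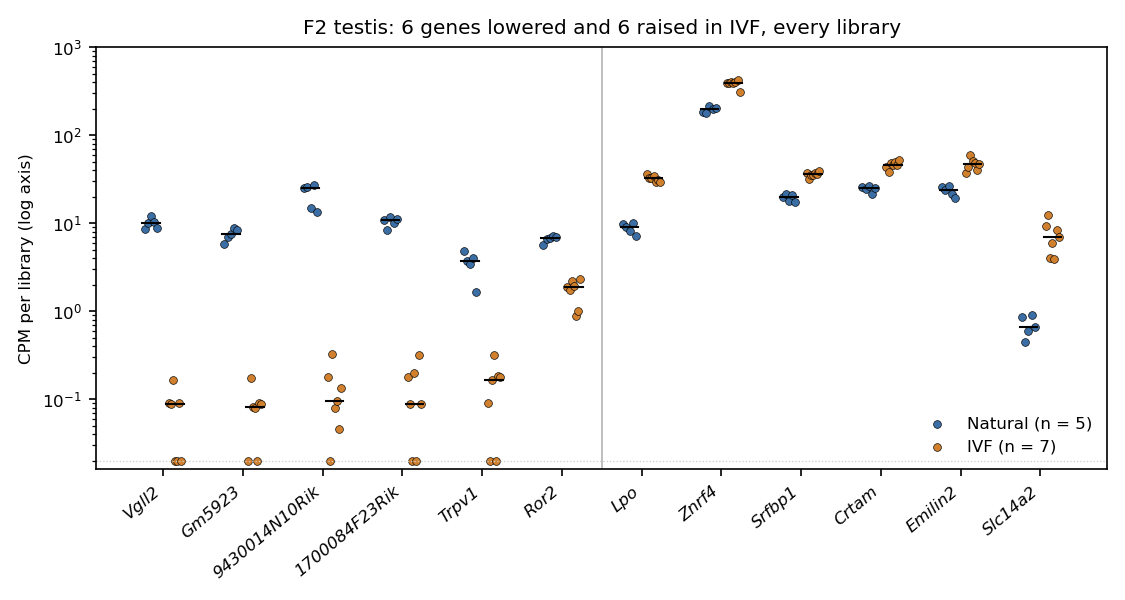
Points are the CPM of each library on a log axis for 6 downregulated and 6 upregulated genes, with 5 naturals in blue, 7 IVF libraries in orange and a bar at each group's median. Values under the dotted line, zeros included, are drawn on it. All 12 genes were picked among DEGs whose groups do not overlap. The IVF libraries of Vgll2 are at 0.165 CPM or less against 8.56 CPM or more in naturals.

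Slc14a2, a urea transporter gene, rose the most among the named upregulated genes. Naturals had 0.867, 0.443, 0.604, 0.900 and 0.662 CPM, and IVF libraries had 3.87 CPM at the lowest, 7.00 CPM at the median and 12.4 CPM at the highest. The log2 fold change was 3.37 ± 0.32 (SE; adjusted p = 1.88e-05, edgeR) with no overlap. Srfbp1, a cofactor of serum response factor, lay between 17.3 and 21.3 CPM in naturals and between 31.8 and 39.1 CPM in IVF. Crtam, known as an adhesion molecule of activated T cells, had 24.4 ± 1.89 CPM (SD, n = 5) in naturals and 45.9 ± 4.68 CPM (SD, n = 7) in IVF. Emilin2, an extracellular matrix glycoprotein, rose from 23.4 ± 2.95 to 46.6 ± 7.32 CPM.

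The other upregulated genes named for a small adjusted p showed log2 fold changes of 0.60 to 1.34. They were Cpne5, a calcium-dependent membrane-binding protein (log2 fold change 1.15), Fev, an ETS transcription factor known from serotonergic neurons (1.01), Arhgap8 (1.34) and Rapgef2, an activator of Rap GTPases (0.60). The lncRNA 2700054A10Rik (1.04) and the pseudogene 2700099C18Rik (0.73) completed them. Nme8, a thioredoxin-like protein of the sperm tail axoneme, was abundant and rose from 133 ± 10.7 to 200 ± 31.4 CPM, with every IVF library above every natural. Its log2 fold change of 0.59 ± 0.10 (SE) lay at the 1.5-fold limit, and the call was lost without any single one of Natural 3, 4 or 5 or IVF 4, 5, 6 or 7. Rapgef2 was lost in the same way without Natural 2 or 5 or IVF 1 or 2.

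Large changes also occurred in genes outside the naming rule, here chosen after their values were seen. Gm15772, a transcribed pseudogene on chromosome 5, was at 5.92, 4.50, 6.79, 6.07 and 7.16 CPM in naturals. In IVF it was at 40.7 to 50.7 CPM in 6 libraries and at 5.72 CPM in IVF 5 (adjusted p = 0.0161, edgeR). IVF 5 alone thus lay within the range of the naturals for this pseudogene. LOC100861749, with no assigned chromosome, had 13.8 CPM on average in naturals and 103 CPM in IVF, without overlap (adjusted p = 0.00226, edgeR).

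Among the Leydig cell markers, 2 paralogs of the same enzyme changed in opposite directions. Hsd3b6, a 3β-hydroxysteroid dehydrogenase of adult Leydig cells, was at 53.3, 54.2, 52.6, 23.4 and 46.4 CPM in naturals. In IVF it was at 4.84 CPM at the lowest, 6.17 CPM at the median and 15.6 CPM at the highest. The log2 fold change was -2.48 ± 0.33 (SE; adjusted p = 0.00382, edgeR), and the groups did not overlap, although Natural 4 stood below the other naturals. Its paralog Hsd3b1 was at 51.2, 52.9, 45.0, 74.7 and 48.3 CPM in naturals. In IVF it ranged from 73.8 CPM through a median of 102 CPM to 134 CPM, and Natural 4, the natural with the least Hsd3b6, overlapped with IVF. The log2 fold change of Hsd3b1 was 0.89 ± 0.16 (SE; adjusted p = 0.0187, edgeR). The call was lost without Natural 1 (adjusted p = 0.0639), Natural 2 (0.0601) or Natural 5 (0.0531), and with the close pairs summed (0.108), where Hsd3b6 stayed called (0.0373).

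The sum of both paralogs overlapped between groups. It was 100.4 ± 5.16 CPM (SD, n = 5) in naturals and 109 ± 16.1 CPM (SD, n = 7) in IVF, with overlapping ranges of 94.7 to 107 and 85.6 to 139 CPM. The share of Hsd3b6 in that sum was 51.0%, 50.6%, 53.9%, 23.9% and 49.0% in the naturals. In IVF the share was 3.50% at the lowest, 5.51% at the median and 15.9% at the highest, without overlap. CPM is not scaled by length, but the longest GENCODE transcripts of both genes were of like length. They were 81.0% identical over 1786 aligned bases, and 38 of 1753 stretches of 50 bases of Hsd3b6, or 2.17%, occurred unchanged in Hsd3b1. A read pair that lies wholly within shared sequence cannot be assigned to either gene. How many did so was not checked, so both levels carry that uncertainty.

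**Figure D3:**
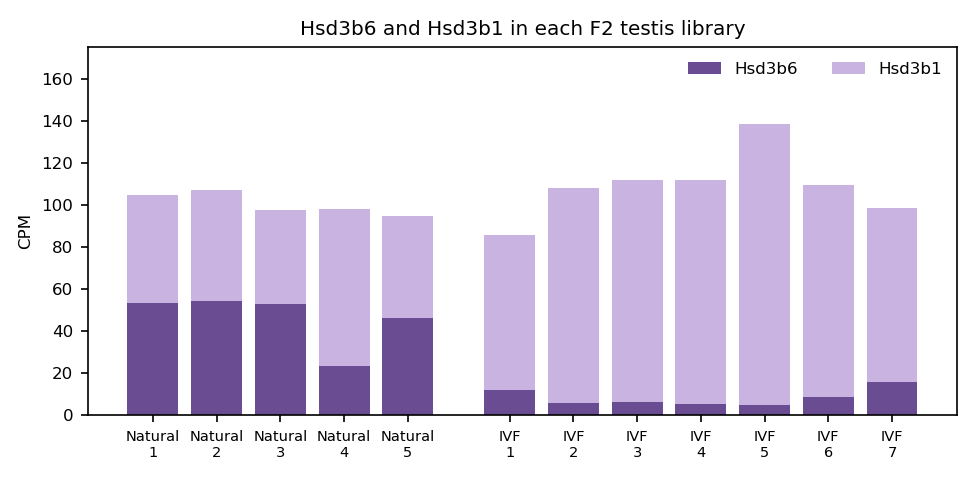
Each bar along the x axis is 1 F2 testis library, and the y axis gives the CPM of Hsd3b6 (dark) with that of Hsd3b1 (light) stacked on it. Hsd3b6 is at 23.4 to 54.2 CPM in the 5 naturals and at 4.84 to 15.6 CPM in the 7 IVF libraries, while the summed height ranges from 85.6 to 139 CPM over all libraries.

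The promoters of both genes are shown because the paralogs moved in opposite directions. They lie 5′ to 3′ on the - strand of chromosome 3, at chr3:98814394-98814693 for Hsd3b6 and chr3:98859745-98860044 for Hsd3b1 (RefSeq, GRCm38.p6). Capitals mark matches to GATAA, the core of the GATA motif, searched on both strands. GATA factors are known regulators of steroid synthesis genes.
Hsd3b6: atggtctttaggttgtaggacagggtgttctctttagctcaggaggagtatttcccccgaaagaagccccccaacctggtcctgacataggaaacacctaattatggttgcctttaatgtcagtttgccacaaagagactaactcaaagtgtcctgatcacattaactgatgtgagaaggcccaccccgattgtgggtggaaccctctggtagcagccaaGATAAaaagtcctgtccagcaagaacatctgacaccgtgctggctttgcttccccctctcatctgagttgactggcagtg
Hsd3b1: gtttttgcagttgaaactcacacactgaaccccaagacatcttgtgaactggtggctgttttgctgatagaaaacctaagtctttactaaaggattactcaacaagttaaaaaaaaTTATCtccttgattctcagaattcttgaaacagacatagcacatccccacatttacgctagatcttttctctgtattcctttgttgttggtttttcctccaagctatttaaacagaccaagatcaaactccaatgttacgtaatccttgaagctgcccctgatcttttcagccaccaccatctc
Each window held 1 match, beside 25.4% of all promoters and 20.1% of those of tested genes with at least 1. Among promoters of downregulated genes 30.7% held such a match, and among those of upregulated genes 24.7%. Neither window held AAGGTCA, a half-site of the steroidogenic factor NR5A1, which was present in 4.72% of all promoters and 4.02% of those of tested genes, beside 5.15% for upregulated and 7.95% for downregulated genes.

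The other Leydig genes did not pass the test, so that 1 rose and 1 fell of 9 tested, where 0.914% of all genes were called, and 4 of the 9 had an unadjusted p under 0.05. Cyp17a1, which makes androgens, was at 340 CPM in naturals and 359 CPM in IVF, and Star, which brings cholesterol into mitochondria, at 106 and 104 CPM. Insl3, a peptide hormone of mature Leydig cells, was at 54.5 and 56.1 CPM. The receptor for luteinizing hormone, Lhcgr, was at 10.9 and 7.59 CPM (log2 fold change -0.52 ± 0.17, SE; adjusted p = 0.132, edgeR). The median log2 fold change of the list was 0.039.

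No marker list of germ cells held a DEG. Of all tested genes, 0.914% were DEGs and 13.9% had an unadjusted p under 0.05, so lists of this size would often hold no DEG. None was called among 14 spermatogonial, 14 spermatocyte, 13 round spermatid and 13 elongating spermatid markers by edgeR or by DESeq2, with 2, 1, 3 and 2 of them at an unadjusted p under 0.05. Their median log2 fold changes were 0.09, 0.032, -0.018 and 0.055. The same held for 14 Sertoli, 7 peritubular myoid, 10 macrophage, 8 endothelial and 4 erythroid markers, where 1, 1, 1, 2 and 1 had an unadjusted p under 0.05, and for the 5 adipocyte and 3 skeletal muscle markers tested, where 1 and 0 did. Of 8 epididymis markers only Rnase10, a ribonuclease-like gene, could be tested, and it rose from 3.67 ± 0.746 CPM to 7.52 ± 1.99 CPM with overlap (adjusted p = 0.00853, edgeR). The other 7 epididymis markers did not pass the filter on low counts.

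Lists of germ cell functions and of other processes held no DEG either, where 0.914% of all genes tested were DEGs. These were the piRNA pathway (19 tested), the sperm flagellum (26), protamine exchange (13), DNA methylation (14), imprinted genes (20), cholesterol biosynthesis (21), extracellular matrix (19), interferon response (10), chaperones (16), steroid receptors and hormone action (15), mitochondrially encoded genes (7) and Y-linked genes (8). Each list held chosen members only, so genes of like function outside it could be DEGs. Nme8 of the sperm tail axoneme and the matrix glycoprotein Emilin2, both DEGs, were in none of the lists. Over all 23 lists without a DEG, 38 of 282 genes had an unadjusted p under 0.05, or 13.5%, against 13.9% of all genes tested, and DESeq2 called none of them. Without the fold limit 2 of the 282 passed edgeR's test. Zfp57, which maintains methylation at imprinted loci, was at 27.0 and 20.7 CPM in naturals and IVF (log2 fold change -0.38, adjusted p = 0.0116, edgeR), and Cyp51, an enzyme of cholesterol synthesis, at 120 and 95.7 CPM (log2 fold change -0.33, adjusted p = 0.0362, edgeR).

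DEGs were unevenly spread over the chromosomes. Of 1002 tested genes on chromosome 17, 37 were called (3.69%), and of 817 on chromosome 13, 22 were called (2.69%), against 0.275% to 1.24% on the other autosomes and 0.397% on the X chromosome. Chromosome 17 alone held 20.9% of the DEGs with a position. With the close pairs of libraries summed, 2.4% on chromosome 17 and 1.59% on chromosome 13 were called. Neighbouring genes are not independent, and no test was made of this spread. A run of 3 neighbouring DEGs was found on chromosome 17, with 9830107B12Rik and A530064D06Rik lower and B430306N03Rik higher in IVF (log2 fold change 0.96 ± 0.16, SE).

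**Figure D4:**
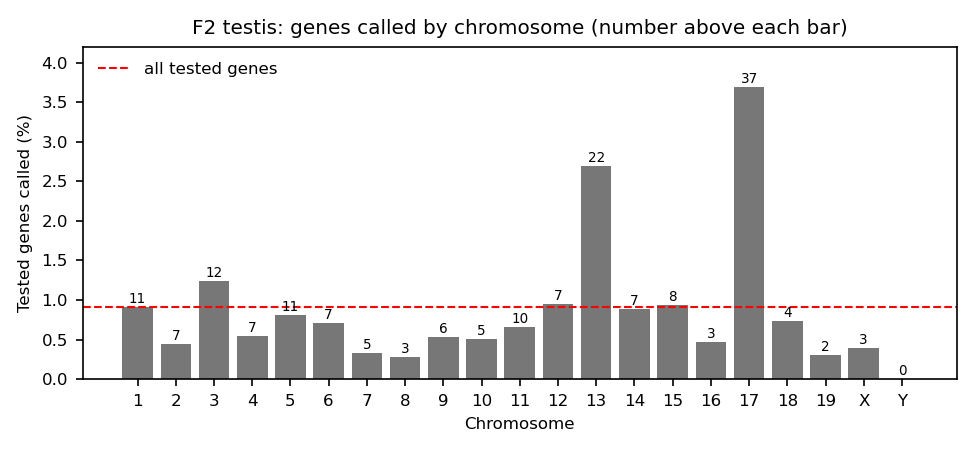
Bars give the percentage of tested genes on each chromosome that were called as DEGs, with their number above each bar and the dashed line at the value for all tested genes, 0.914%. Chromosomes 17 (3.69%) and 13 (2.69%) stand above the others.

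On chromosome 17 the window from 30 to 40 Mb held the most DEGs, with 17 of 221 tested genes called (7.69%), 8 upregulated and 9 downregulated. This window holds the major histocompatibility complex, whose class II genes present peptides on immune cells. H2-Ab1, a class II beta chain, was at 20.2, 22.6, 9.47, 19.8 and 20.4 CPM in naturals. In IVF it had 3.14 CPM at the lowest, 6.05 CPM at the median and 7.08 CPM at the highest, without overlap (log2 fold change -1.70 ± 0.22, SE; adjusted p = 0.00141, edgeR). Its partner chain H2-Aa did not pass the test, at 3.07 CPM in naturals and 4.26 CPM in IVF (adjusted p = 0.583, edgeR).

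Several other genes of this window changed in one or the other direction. H2-DMb2 and the pseudogene of complement C4a were lower in IVF, and the class I genes H2-Q2 and H2-Q10 and lymphotoxin alpha (Lta) were higher. The pseudogene H2-Ea-ps was at 0 CPM in 4 naturals and 0.075 CPM in the other, and at 0.548 to 1.56 CPM in every IVF library. Neu1, a lysosomal sialidase, was at 10.0 to 21.0 CPM in naturals and at 3.87 to 6.17 CPM in IVF (log2 fold change -1.72; adjusted p = 9.14e-06, edgeR). Among all tested symbols that start with H2-, 3 rose and 2 fell of 24, or 20.8%, against 0.914% of all genes tested. Of the 21 genes of the histocompatibility list, which also holds genes elsewhere, edgeR called H2-Ab1 and DESeq2 called H2-Ab1 and H2-D1. H2-D1, a class I gene, stood at 19.4 to 39.1 CPM in naturals and 43.6 to 68.8 CPM in IVF, without overlap (adjusted p = 0.0504, edgeR). Class I and class II genes are close copies and differ between mouse strains, and how their reads were split could not be checked here.

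On chromosome 13 the window from 60 to 70 Mb had 11 of 102 tested genes called (10.8%), 6 upregulated and 5 downregulated. It holds a cluster of KRAB zinc finger genes, repressors that bind repeats and regulatory sequence. Rsl1, a regulator of sex-limited liver genes, was at 0.975 to 1.70 CPM in naturals and 0.0907 to 0.630 CPM in IVF. Zfp759 was at 21.4 to 23.9 CPM in naturals and 12.1 to 19.3 CPM in IVF, while Zfp457 was higher in IVF, at 1.66 to 3.04 against 3.98 to 6.16 CPM. None of these 3 genes overlapped between groups. Across the genome zinc finger symbols were called in 1.32% of 378 genes, 1 up and 4 down, near the 0.914% of all genes tested.

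The testes of F1 males at 12 weeks, 5 naturals and 5 conceived by IVF, gave a comparison with the generation of the fathers. The libraries share no samples with those of F2, each table was normalized on its own, and levels set across them carry that limit. Generation was also confounded with sequencing and with the cross. Their parts in a difference of level between F1 and F2 cannot be told apart. In F1, 40 of 20113 tested genes were DEGs (0.199%), and 1 of the 177 F2 DEGs that could be tested there was among them. That gene was Grik3, a kainate-type glutamate receptor subunit. In F1 it stood at 1.52 ± 0.506 CPM in naturals and 3.92 ± 0.924 CPM in IVF (SD, n = 5 each), and in F2 at 2.97 and 6.34 CPM, without overlap in either generation. Of the 98 genes upregulated in F2 and tested in F1, 57 were higher and 41 lower in F1 IVF, and of 79 downregulated ones 36 were higher and 43 lower.

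Within F1 groups the F2 DEGs had a larger spread than all tested genes. The median within-group SD of log2 CPM in F1 was 0.57 for the 177 genes and 0.24 for all tested genes, and in genes of 1 to 10 CPM it was 0.57 and 0.38. An F1 library under 0.2 CPM together with another over 1 CPM was found for 18.4% of the F2 DEGs and 5.64% of all genes tested in F2. These shares were not matched for abundance, and F2 DEGs were of lower abundance than all tested genes. Of the 21 near-absent genes, which were picked for a level near 0 in a group of F2, 18 showed such a split in F1. All 18 did so among libraries of the same F1 group, 12 within naturals and 16 within IVF, so that some did so in both groups. Gm5923, as an example, was at 8.41 and 8.80 CPM in F1 Natural 1 and 2 and at 0 CPM in the other 3 naturals, and at 10.3 CPM in F1 IVF 4 with at most 0.213 CPM in the other 4.

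Lpo, raised in every F2 IVF library, was at 22.7, 28.0, 29.3, 26.2 and 7.72 CPM in F1 naturals and at 11.9, 31.4, 27.2, 17.2 and 36.5 CPM in F1 IVF. H2-Ab1 was at 70.0 CPM in 1 F1 natural and at 4.88 to 8.80 CPM in the other 4, and at 67.1 and 72.4 CPM in 2 of the F1 IVF animals. For these genes, F1 libraries of both kinds of conception thus held both high and low levels.

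**Figure D5:**
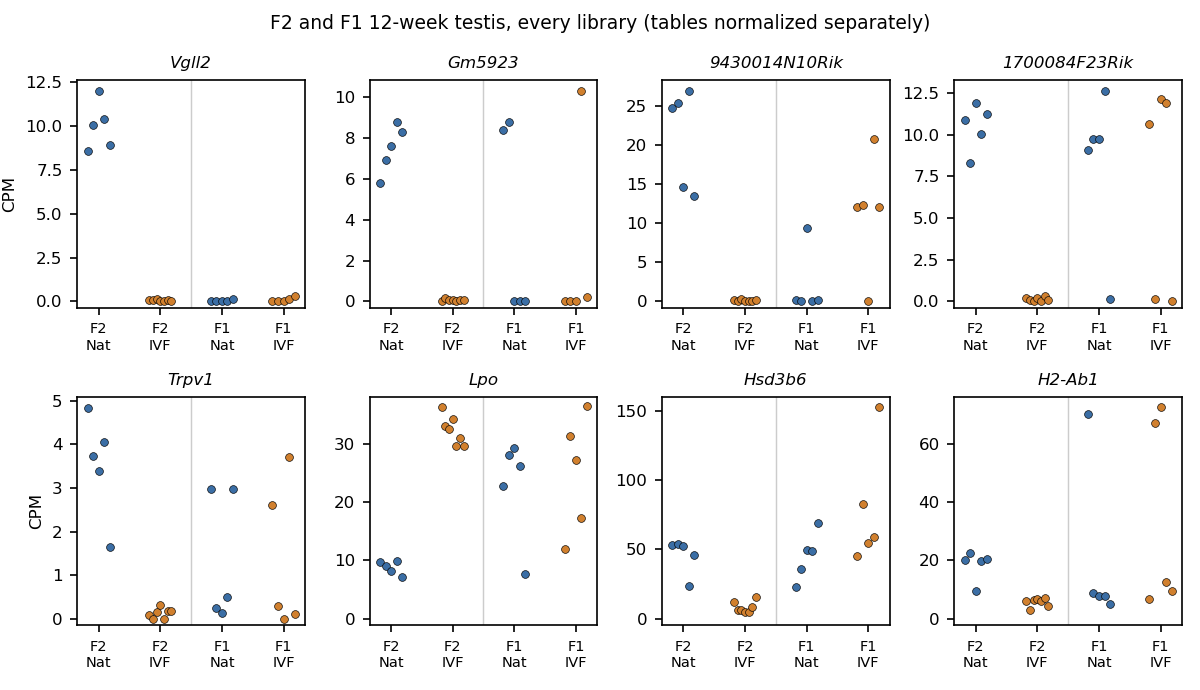
Points are the CPM of each testis library for 8 genes in F2 naturals (n = 5), F2 IVF (n = 7), F1 naturals (n = 5) and F1 IVF (n = 5), on linear axes, with the tables normalized separately. Gm5923, 9430014N10Rik, 1700084F23Rik, Trpv1, Lpo and H2-Ab1 are high in some and low in other F1 libraries of each kind of conception, and Vgll2 stays under 1 CPM in all F1 libraries.

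The interaction in a joint edgeR fit of both tables tested whether the difference between IVF and naturals changed from F1 to F2. F1 IVF males were conceived by IVF, while F2 IVF males were only sired by such males. The interaction called 46 of 22062 genes at an adjusted p under 0.05 (0.209%). Of the 196 F2 DEGs, 14 were among them. The count was sensitive to single libraries. It was 26 to 29 without F2 Natural 1, 2, 3 or 5, 30 without F1 Natural 2, 79 without F2 IVF 5, 78 without F1 IVF 5, 92 without F1 Natural 1 and 263 without F1 IVF 1.

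For Slc14a2 and Crtam, the F2 naturals lay below every library of the other 3 groups, in levels that carry the limits of setting F1 beside F2. Slc14a2 was at 9.15 to 11.6 CPM in F1 naturals and 8.44 to 11.3 CPM in F1 IVF, with 3.87 to 12.4 CPM in F2 IVF and 0.443 to 0.900 CPM in F2 naturals (interaction adjusted p = 3.78e-06, edgeR). Crtam was at 49.0 to 50.4 CPM in F1 naturals and 48.8 to 68.4 CPM in F1 IVF, and at 21.3 to 26.2 CPM in F2 naturals (interaction adjusted p = 0.00278, edgeR). Vgll2 was the reverse case in level, under 1 CPM in every F1 library, so that of these testes it was measurable above 1 CPM only in F2 naturals. Hsd3b6 was at 45.2 ± 17.1 CPM in F1 naturals and 79.0 ± 43.4 CPM in F1 IVF (SD, n = 5 each), and of the 4 groups F2 IVF was the low one (interaction adjusted p = 0.00802, edgeR).

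Other tissues of F2 animals were read for the same genes, each again normalized on its own. Vgll2 was at 0.0802 CPM or less in every F2 male liver and at 0 CPM in every F2 ovary, Lpo was at 0.0988 CPM or less in both tissues, and their F2 testis changes therefore had no counterpart that could be measured there. H2-Ea-ps was at 0 CPM in all 5 livers of F2 naturals and at 2.60, 1.24, 0, 0 and 3.54 CPM in those of F2 IVF males. In ovaries it was at 17.9, 0, 16.4 and 0.162 CPM in naturals and at 39.8, 27.4, 0.384, 30.1 and 26.3 CPM in IVF, so both levels occurred in both ovary groups. Of 43 F2 testis DEGs that could be tested in male liver, 15 were DEGs there, in a tissue where 31.1% of all tested genes were. Of the 25 upregulated in testis, 9 were upregulated and 3 downregulated in liver. Of the 18 downregulated in testis, 2 were downregulated and 1 upregulated in liver.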

How the data were processed

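Raw gene counts of 12 F2 testis libraries were analysed. Per the labels and the submitters' processing notes, the authors trimmed reads (Trimmomatic 0.32), mapped them to mm10 (STAR 2.3.0e), counted reads per RefSeq gene (featureCounts 1.5.0) and deposited the counts without normalization. Library construction followed a stranded mRNA protocol, and the RNA extraction kit differs between the labels and the methods of the study. Of low counts, 62.5% to 65.0% were even, so many fragments were counted by both mates. A count is then less than an independent molecule, and intervals used halved counts. They cover counting error only.

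Genes were filtered by edgeR's filterByExpr by group, normalized by TMM and tested with the two-sided quasi-likelihood test (edgeR 4.0.16, R 4.3.3), robust fits, with Benjamini-Hochberg adjustment over all tested genes. DEGs passed 0.05 in adjusted p and 1.5-fold (0.585 on the log2 scale) in size. Log2 CPM used a prior count of 2. F1 testis, F2 male liver and F2 ovary counts were fitted in the same way. Named genes were the 12 DEGs of smallest adjusted p per direction without overlap and with at least 1 CPM, at most 4 DEGs per gene list, runs of at least 3 neighbouring DEGs, and the 3 most abundant DEGs per direction. The comparison, gene lists and named genes were chosen with earlier results of these data known. Symbols were matched to the RefSeq table of GRCm38.p6, by symbol for 19811 and by synonym for 669 of 21454 tested genes. Promoters are from RefSeq on GRCm38.p6, 300 bases each, and transcripts from GENCODE M21 (global alignment in Biopython 1.88). The script was tested on simulated counts. DESeq2 1.42.0, sva 3.50.0 and other settings were alternatives. Other tables of the series were not used here.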

Additional observations from a re-analysis of the deposited data

Results flagged for a closer look

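Of 62 sets of values looked at (named genes, total counts and similar library measures in each group), 7 had a library whose gap to its nearest neighbour was large for the range of its group by Dixon's 95% criterion, where chance flags about 1 in 20. Among naturals, Natural 4 had 23.4 CPM of Hsd3b6, 74.7 CPM of Hsd3b1 and 20.5 CPM of Kcnab2. For all of these it lay on the side of the IVF group. Natural 3 was at 9.47 CPM of H2-Ab1, and Natural 5 had the fewest counts of the naturals, 23707177. In the IVF group, IVF 6 was at 34.6 CPM of Mxra8 and IVF 7 at 304 CPM of Znrf4, the lowest of its group.

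By the interaction term, the difference between IVF and naturals was not the same in F2 and F1 12-week testes for 7 named genes. The interaction, F2 minus F1 on the log2 scale, was -9.03 for Vgll2, -9.98 for 9430014N10Rik, -4.88 for Gm14149 and -3.29 for Hsd3b6, and it was 3.39 for Slc14a2, 1.03 for Fev and 0.73 for Crtam. For the first 3 of these the fitted values depend on the prior count, since F2 IVF libraries were near 0 and, for Vgll2, F1 libraries as well. 9430014N10Rik and Gm14149 varied strongly among F1 animals of the same group, and the part of that variation in the difference was not tested.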

How the results depend on the processing

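None of the 34 named genes reversed under any alternative run that tested them, and 25 kept their call in every such run, leave-one-out fits included. Most of the 34 were picked from these data for a small adjusted p and no overlap, which favours this outcome. A gene that a setting did not test was not scored there. Besides the leave-one-out fits, Lpo was scored in 12 alternatives, Vgll2 in 11 and Gm26715 in 10. Over all 196 DEGs, single leave-one-out fits kept from 52% (without Natural 1) to 85.7% (without IVF 2). DESeq2's Wald test, which differs in both test and filter (32139 genes entered), called 374 genes (196 upregulated, 178 downregulated), and edgeR without the fold limit 345 (202 and 143). The counts were 92 (47 and 45) with the 2 closest library pairs summed and 122 (64 and 58) without the genes of chromosomes 13 and 17. Both of these settings were chosen after seeing the data, and the second tests fewer genes. Leaving out 1 library at a time gave 111 to 224 DEGs, 60 to 119 upregulated and 51 to 110 downregulated. The other settings stayed within 1.5 times the main counts: DESeq2's size factors, no filter, a minimum of 10 counts per library, halved counts, counts thinned to 20840178 per library (middle of 5 draws), the GC trend removed and 1 surrogate variable. GC content was known for 85.9% of tested genes but 75.5% of DEGs, so a check of GC over the DEGs is void.

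With the replicate number as a block, the replicate block fit gave 144 DEGs (70 and 74), of which 108 were among the 196. The numbers only name samples here, since the correlation of same-numbered deviations was -0.23 to 0.034, and H2-Ab1, Hsd3b1, Kcnab2, Mxra8, Nme8, Rnase10 and 9830107B12Rik were not called with the block.

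The interaction called 46 genes, and 318 by DESeq2, 72 with at least 10 counts in every library and 26 to 263 without 1 library at a time. The cause of these differences was not tested. The difference in total counts was -0.17 to -0.23 on the log2 scale without 1 library and stayed under a p of 0.05 in every such test. Low counts limit precision for the 97 DEGs under 5 CPM.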
